A study of Homo sapiens with 15 samples.

Results

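The UGT2B genes encode UDP-glucuronosyltransferases of the endoplasmic reticulum, and their mRNAs were measured in LNCaP cells given R1881, a synthetic androgen, with or without enzalutamide. The members were the rows of the expression table whose symbol was UGT2B followed by a number alone. This rule gave 7 of 17272 genes, namely UGT2B4, UGT2B7, UGT2B10, UGT2B11, UGT2B15, UGT2B17 and UGT2B28, and all 7 passed the filter of a mean of at least 0.5 CPM (normalised counts scaled to the size of each library). Rows of 3 UGT2B pseudogenes (UGT2B24P, UGT2B25P and UGT2B27P) were kept out of the members and are given beside them. LNCaP is an established line from a lymph node metastasis of a human prostate carcinoma that responds to androgens. All 15 libraries came from LNCaP cells that had been kept for 2 days in medium with charcoal-stripped serum, which is low in steroids, and were then given 1 nM R1881. The 10 control libraries (R1881 + DMSO) received the vehicle, and 5 libraries (R1881 + enzalutamide) received 2 µM enzalutamide, an anti-androgen used against prostate cancer, with both groups harvested after 22 h. No group without R1881 was among the samples, so every comparison sets androgen plus antagonist against androgen alone, in a single cell line.

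UDP-glucuronosyltransferases transfer glucuronic acid from UDP-glucuronic acid to small lipophilic molecules, which makes them water-soluble and ready for export. UGT2B17 and UGT2B15 conjugate testosterone, dihydrotestosterone and their reduced metabolites, and this step ends the hormonal activity of the steroid in the prostate. In LNCaP cells both genes are known to be repressed by androgens. UGT2B28 also accepts androgens, UGT2B7 has a wide range of substrates that includes opioids and oestrogens, UGT2B4 conjugates bile acids, and UGT2B10 attaches glucuronic acid to tertiary amines such as nicotine. The substrates of UGT2B11 are less well defined. As a label for the family, androgen-inactivating therefore describes UGT2B15 and UGT2B17 better than the other members.

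The 7 genes lie in a single cluster on chromosome 4 (GRCh38, GENCODE v44), whose first and last members span 989 kb. UGT2B17 (ENSG00000197888.3) lies at chr4:68537173-68576413 and UGT2B15 (ENSG00000196620.10) at chr4:68646597-68670652, both on the minus strand. UGT2B10 (ENSG00000109181.12, chr4:68815994-68832023) and UGT2B7 (ENSG00000171234.14, chr4:69051363-69112987) follow on the plus strand. UGT2B11 (ENSG00000213759.10, chr4:69199951-69214748, minus strand), UGT2B28 (ENSG00000135226.18, chr4:69280475-69295050, plus strand) and UGT2B4 (ENSG00000156096.15, chr4:69480165-69526014, minus strand) close the cluster. The canonical transcript of UGT2B17 has 7 exons, and those of the other members have 6.

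The members are close copies, and the first 90 coding bases of the 2 most alike pairs are shown because reads of 50 bases had to be assigned between such copies. Sequences run 5′ to 3′ from the start codon, were read from GRCh38 at the GENCODE v44 coding exons, and have capitals where the members of a pair differ.
UGT2B17: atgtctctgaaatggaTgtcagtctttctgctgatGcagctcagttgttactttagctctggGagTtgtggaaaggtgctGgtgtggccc
UGT2B15: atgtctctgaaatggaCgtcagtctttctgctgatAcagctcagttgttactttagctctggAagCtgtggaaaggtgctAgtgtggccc
UGT2B11: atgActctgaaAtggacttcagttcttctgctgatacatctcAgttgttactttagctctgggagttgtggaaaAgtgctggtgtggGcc
UGT2B28: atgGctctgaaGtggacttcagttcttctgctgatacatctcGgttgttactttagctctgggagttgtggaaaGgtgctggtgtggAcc
Each pair differed at 5 of these 90 bases. Over the whole coding sequence, UGT2B17 and UGT2B15 were 96.5% identical with an identical run of up to 199 bases, and UGT2B11 and UGT2B28 were 97.04% identical with a run of up to 110 bases. UGT2B10 was nearest to UGT2B11 (95.01%), whereas UGT2B17 and UGT2B28 shared 84.4% of their coding bases. Of all 50-base windows in the exons, 79.2% in UGT2B17 and 74.5% in UGT2B15 occurred nowhere else in the primary chromosomes. The same share was 77.95% in UGT2B10, 92.7% in UGT2B7 and 94.9% in UGT2B4, but it was 66.2% in UGT2B28 and 58.5% in UGT2B11. UGT2B17 shared 19.2% of its windows with UGT2B15, UGT2B28 shared 21.9% with UGT2B11, and UGT2B11 shared 18.6% with the pseudogene UGT2B25P and 16.6% with UGT2B28. Between the pairs little was shared, since UGT2B15 had 0% of its windows in common with UGT2B11 or UGT2B28, and UGT2B17 had 0.135% in common with UGT2B11 and 0% with UGT2B28. The treatment of reads with several matches was not stated, so the levels of these copies are uncertain by the part of the reads that could be split between them.

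The sequence just upstream of the start site is shown for UGT2B15, UGT2B10 and UGT2B11, of which the first rose, the second did not pass the test and the third fell under enzalutamide. The RefSeq promoter table (GRCh38.p14) matched 4 of the 7 members, with UGT2B7 as the fourth, and UGT2B17, UGT2B28 and UGT2B4 are only named here. Each run holds the 250 bases before the annotated start, on the strand of the gene, and capitals mark the forkhead-type motif TATTTAC or its reverse complement. The windows are chr4:68670653-68670902 (minus strand), chr4:68815744-68815993 (plus strand) and chr4:69214749-69214998 (minus strand).
UGT2B15: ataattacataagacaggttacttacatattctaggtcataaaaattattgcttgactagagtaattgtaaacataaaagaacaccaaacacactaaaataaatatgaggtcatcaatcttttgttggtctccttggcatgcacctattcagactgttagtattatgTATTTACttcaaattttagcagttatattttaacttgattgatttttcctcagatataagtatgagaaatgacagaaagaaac
UGT2B10: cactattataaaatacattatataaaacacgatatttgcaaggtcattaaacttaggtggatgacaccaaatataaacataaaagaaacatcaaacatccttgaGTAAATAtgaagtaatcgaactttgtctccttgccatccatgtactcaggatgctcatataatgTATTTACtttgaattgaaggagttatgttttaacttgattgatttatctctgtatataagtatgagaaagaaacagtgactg
UGT2B11: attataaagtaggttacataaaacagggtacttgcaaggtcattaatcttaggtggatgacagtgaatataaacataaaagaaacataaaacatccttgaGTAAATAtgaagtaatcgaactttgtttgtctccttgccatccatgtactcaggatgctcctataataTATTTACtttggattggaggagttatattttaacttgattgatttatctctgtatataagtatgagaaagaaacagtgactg
The windows of UGT2B10 and UGT2B11 were 93.1% identical, and each of them was 75.8% identical to that of UGT2B15. TATTTAC was found 2 times in UGT2B10, 2 times in UGT2B11, 1 time in UGT2B15 and 0 times in UGT2B7, on either strand, and 2.39% of 35116 promoters of the same length hold it. The related TGTTTAC was found 1 time, in UGT2B15 (2.98% of promoters). The hexamer TGTTCT was found 1 time, in UGT2B15 (12.4% of promoters), and the palindromic androgen response element, in which this hexamer and its reverse complement stand 3 bases apart, was in none of the 4 windows (0.00285% of promoters). GTTAAT, bound by hepatocyte nuclear factors (6.23% of promoters), and the octamer ATGCAAAT (1.63% of promoters) were in none of the 4 windows. TATAAA (10.7% of promoters) was found 3 times in UGT2B10 and 2 times in UGT2B11. These matches are descriptions of letters and say nothing about binding in LNCaP cells.

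The libraries held 15830745 to 25416052 reads, as recovered from the deposited values. The mRNAs of androgen-induced genes checked the labels, with KLK3, the gene of prostate-specific antigen, at 1588 ± 209 CPM in R1881 + DMSO and 134 ± 7.66 CPM in R1881 + enzalutamide (SD, n = 10 and 5), and all 4 genes chosen for this check were lower. All 7 luminal prostate markers listed had a row, of which 3 were higher under enzalutamide (FOLH1 by 1.04, HOXB13 by 0.16 and FOXA1 by 0.09 in log2) and 4 were lower (KLK3, KLK2, KRT8 and KRT18). Their summed level was 5457 to 6753 CPM in R1881 + DMSO and 2942 to 2993 CPM in R1881 + enzalutamide. All 3 proliferation markers were lower in R1881 + enzalutamide. Of the basal markers, KRT14 had a row and was lower (0.706 to 1.44 CPM in R1881 + DMSO and 0 to 0.279 CPM in R1881 + enzalutamide, limma adjusted p 3.57e-08). Of the stromal and endothelial markers, COL1A1 (6.03 ± 1.28 and 9.96 ± 1.80 CPM, limma adjusted p 9.33e-05) and VWF (2.56 ± 0.256 and 3.20 ± 0.207 CPM, limma adjusted p 0.00526) had a row and were higher. Of the markers listed, 0 of 3 for immune cells and 0 of 4 for hepatocytes had a row. The part of these shifts in the UGT2B values was not tested. In bulk RNA, fewer cells of a kind and less RNA per cell cannot be told apart. The study's methods call the replicates biological, but neither they nor the labels name separate cultures, so p-values measure the spread between these libraries, which may be technical in part.

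The UGT2B members moved in different directions under enzalutamide. UGT2B17, UGT2B15 and UGT2B7 rose, UGT2B11 and UGT2B28 fell, and UGT2B10 and UGT2B4 did not pass the test. At an adjusted p under 0.05 (limma on log2(CPM + 0.5), Benjamini-Hochberg over 17046 genes), 3 of 7 members were higher, against 29.8% of all genes tested, and 2 of 7 were lower, against 32.7%. Over all genes, 5083 were higher and 5577 lower, and with each library scaled to a total of 1000000 these counts were 6641 and 4288, while the calls and directions of the 7 members were the same. With 62.5% of all genes called, the count of members called is near the background. A rise of at least 4-fold was called for 88 genes (0.516%), with UGT2B17 and UGT2B15 among them. A fall of at least 4-fold was called for 185 genes (1.09%), with UGT2B28 among them.

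**Figure D1:**
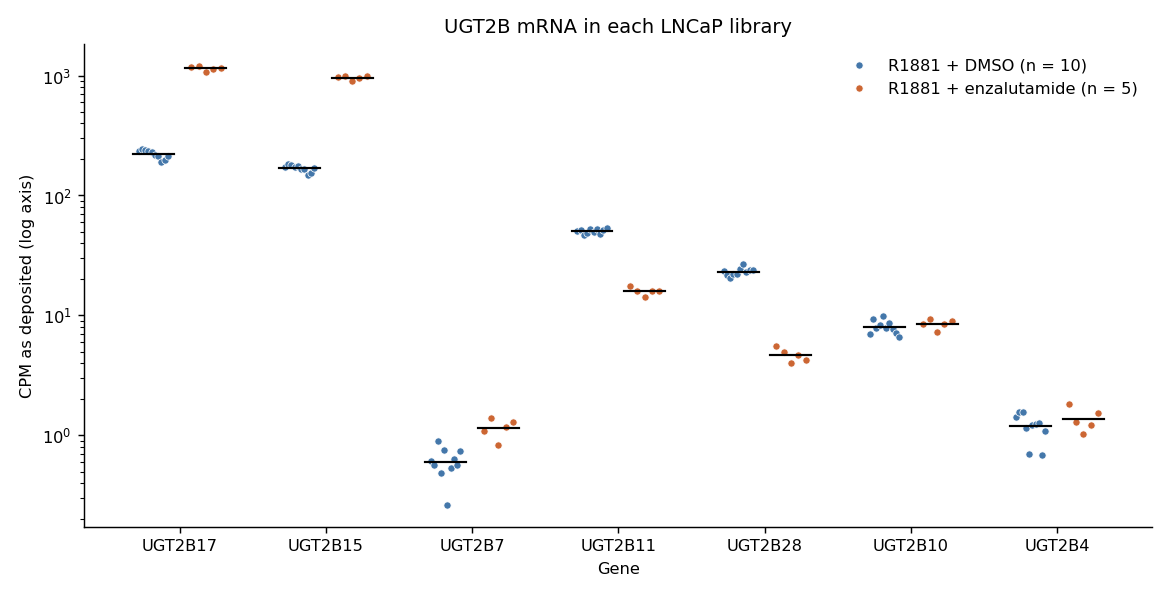
Expression of the 7 UGT2B genes in each LNCaP library, in CPM on a log axis, with one point per library and a line at the mean of each treatment (10 libraries of R1881 + DMSO, 5 of R1881 + enzalutamide). UGT2B17 and UGT2B15 sit at 898 CPM or more in all enzalutamide libraries and at 246 CPM or less in all control libraries, UGT2B11 and UGT2B28 move the other way without overlap, and the points of UGT2B7, UGT2B10 and UGT2B4 overlap.

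UGT2B17, which conjugates testosterone, dihydrotestosterone and androsterone, ranged from 191 to 246 CPM with a median of 222 CPM in R1881 + DMSO. Under enzalutamide it reached 1170.3, 1202, 1074, 1142 and 1154 CPM in libraries 81 to 85. The treatments stood wide apart without overlap, which was so for 37.2% of all genes in either direction and for 17.1% in this one. The means were 222 ± 18.1 and 1149 ± 47.2 CPM (SD, n = 10 and 5), a log2 fold change of 2.37 with an SE of 0.051 and a limma adjusted p of 1.44e-19. On the log2(CPM + 0.5) scale this was a 5.18-fold rise with a 95% interval of 2.27 to 2.48 in log2.

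UGT2B15, the close copy of UGT2B17 that conjugates dihydrotestosterone and androstanediol, ranged from 147 to 184 CPM with a median of 170.4 CPM in R1881 + DMSO. Libraries 81 to 85 of R1881 + enzalutamide held 967, 997, 898, 954 and 982 CPM. No control library came near these values. The means were 169 ± 11.3 and 959.6 ± 38.2 CPM (SD, n = 10 and 5), a log2 fold change of 2.51 (SE 0.045, 95% interval 2.41 to 2.60, limma adjusted p 6.45e-21) or a 5.69-fold rise. Ordered by log2 fold change, UGT2B15 was the 31st and UGT2B17 the 47th from the top of the 17046 genes.

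UGT2B7, the broad-substrate enzyme, was near the limit of detection. In R1881 + DMSO it ranged from 0.264 to 0.898 CPM with a median of 0.592 CPM, which rested on 6 to 17 reads per library. In R1881 + enzalutamide it was at 1.09, 1.40, 0.837, 1.18 and 1.30 CPM in libraries 81 to 85, on 18 to 30 reads. Library 83 lay within the range of the controls, and the other 4 enzalutamide libraries lay above it. UGT2B7 rose by 0.59 on the log2(CPM + 0.5) scale (SE 0.126, 95% interval 0.33 to 0.86, limma adjusted p 3.42e-04), and the ratio of the means, 1.16 ± 0.215 over 0.605 ± 0.172 CPM, was 1.92. The pseudocount of 0.5 holds the fitted change down at such levels, and edgeR on the recovered reads gave a log2 fold change of 1.00.

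UGT2B11 ranged from 46.4 to 53.8 CPM with a median of 50.7 CPM in R1881 + DMSO. In libraries 81 to 85 of R1881 + enzalutamide it was at 17.7, 15.9, 14.2, 15.8 and 16.03 CPM. All enzalutamide libraries were below all controls by a wide margin. UGT2B11 fell by 1.63 on the log2 scale (SE 0.048, 95% interval −1.73 to −1.53, limma adjusted p 2.98e-17), from 50.5 ± 2.34 to 15.9 ± 1.23 CPM (SD, n = 10 and 5), which is 3.10-fold lower. An annotated lncRNA, ENSG00000250696, overlaps UGT2B11 on the other strand, and without knowledge of how strand entered the counting their reads cannot be told apart. On the same strand, annotated pseudogenes overlap UGT2B7 (ENSG00000248763) and UGT2B4 (UGT2A3P7), and the part of this overlap in the counts was not tested.

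UGT2B28, which also conjugates androgens, ranged from 20.5 to 26.6 CPM with a median of 23.1 CPM in R1881 + DMSO. Its values in libraries 81 to 85 were 5.59, 4.93, 4.0002, 4.67 and 4.27 CPM. The groups did not overlap, which was so for 20.1% of all genes in this direction. UGT2B28 fell by 2.19 on the log2 scale (SE 0.070, 95% interval −2.34 to −2.05, limma adjusted p 1.13e-16), from 23.2 ± 1.68 to 4.69 ± 0.619 CPM (SD, n = 10 and 5), which is 4.58-fold lower. UGT2B28 was the 128th gene from the bottom by log2 fold change, and UGT2B11 was the 295th.

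The 3 pseudogenes lie in the same cluster and share exonic stretches with the members and with each other. All 3 were lower under enzalutamide without overlap, which was so for 20.1% of all genes tested, while 32.7% were called lower. UGT2B24P went from 10.2 ± 0.735 to 2.61 ± 0.226 CPM (log2 fold change −1.79, limma adjusted p 2.29e-15). UGT2B25P went from 8.60 ± 0.888 to 2.43 ± 0.300 CPM (−1.63, limma adjusted p 3.58e-13). UGT2B27P went from 3.13 ± 0.325 to 1.56 ± 0.254 CPM (−0.82, limma adjusted p 9.84e-08). The ratios of the means were 0.255, 0.283 and 0.499 in this order, as the pseudocount of 0.5 holds the fitted changes down. Unique 50-base windows made up 51.0%, 39.9% and 73.9% of the pseudogene exons, respectively, so that part of the pseudogene reads could belong to the coding copies. UGT2B25P shared 36.9% of its windows with UGT2B24P and 29.6% with UGT2B11, so these rows are not separate observations.

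UGT2B10, the nicotine-conjugating enzyme, whose nearest relative by coding sequence is UGT2B11, did not pass the test. It ranged from 6.56 to 9.92 CPM with a median of 7.83 CPM in R1881 + DMSO, and it was at 8.55, 9.36, 7.30, 8.47 and 9.03 CPM in libraries 81 to 85. All enzalutamide libraries lay within the range of the controls. The log2 difference was 0.09 with a 95% interval of −0.09 to 0.27 (limma adjusted p 0.375), on 97 to 225 reads per library in the controls and 157 to 216 reads under enzalutamide. UGT2B4, the bile acid-conjugating enzyme, ranged from 0.692 to 1.56 CPM with a median of 1.23 CPM in R1881 + DMSO. It was at 1.82, 1.30, 1.02, 1.22 and 1.53 CPM in libraries 81 to 85, on 22 to 40 reads per library. Its log2 difference of 0.16 had a 95% interval of −0.13 to 0.45 (limma adjusted p 0.322), which includes changes in either direction. Among the enzalutamide libraries, library 83 held the lowest value of each of the 7 members.

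Per kilobase of the canonical transcript, the order of the levels in R1881 + DMSO was UGT2B17, UGT2B15, UGT2B11, UGT2B28, UGT2B10, UGT2B4 and UGT2B7. UGT2B17 (89.3 ± 7.31 CPM per kb) and UGT2B15 (79.0 ± 5.28 CPM per kb) had overlapping ranges, as had UGT2B4 (0.566 ± 0.144) and UGT2B7 (0.320 ± 0.091). Between them stood UGT2B11 at 24.0 ± 1.11, UGT2B28 at 12.5 ± 0.904 and UGT2B10 at 2.91 ± 0.383 CPM per kb, each apart from its neighbours in the order. Under enzalutamide UGT2B17 (463 ± 19.0 CPM per kb) and UGT2B15 (450 ± 17.9 CPM per kb) again overlapped, far above UGT2B11 at 7.57 ± 0.582 CPM per kb. UGT2B10 (3.10 ± 0.283 CPM per kb) then stood above UGT2B28 (2.53 ± 0.333 CPM per kb) with overlapping ranges, where it had stood below it without overlap in the controls. UGT2B4 and UGT2B7 remained at the bottom, at 0.656 ± 0.146 and 0.615 ± 0.114 CPM per kb.

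The summed UGT2B level was 474 ± 29.3 CPM in R1881 + DMSO (range 418 to 516 CPM) and 2140 ± 86.9 CPM in R1881 + enzalutamide (range 2000 to 2232 CPM; SD, n = 10 and 5), a ratio of 4.52. UGT2B17 and UGT2B15 made up 82.3% ± 1.28 of this sum in the controls and 98.5% ± 0.082 under enzalutamide. UGT2B11 and UGT2B28 together went from 15.6% ± 1.29 to 0.964% ± 0.063. Per kilobase the first pair held 80.6% ± 1.41 and 98.4% ± 0.091 of the sum, close to the shares without the correction for length. UGT2B10, whose own level did not pass the test, went from 1.69% ± 0.192 to 0.398% ± 0.022 of the sum as the total rose.

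**Figure D2:**
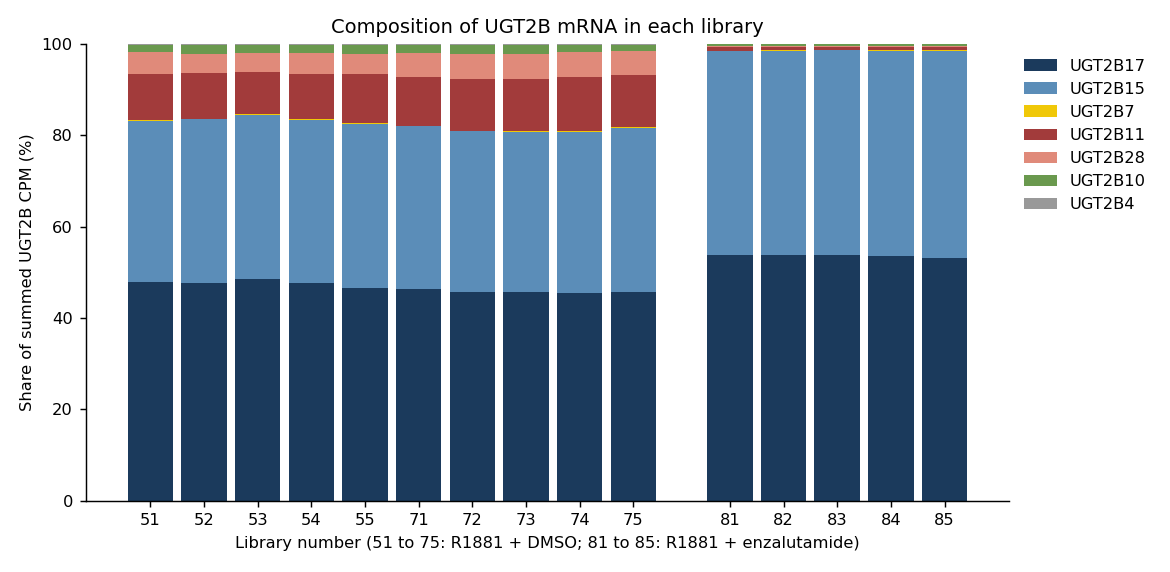
Composition of UGT2B mRNA in each library, as the share (%) that each member takes of the summed UGT2B CPM, for libraries 51 to 75 (R1881 + DMSO) and 81 to 85 (R1881 + enzalutamide). UGT2B17 and UGT2B15 take 80.8% to 84.4% of the sum in the control libraries and 98.4% to 98.6% in the enzalutamide libraries.

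The close copies did not change by the same factor. Log2 ratios between members, computed within each library from CPM + 0.5, were compared over all 3003 regroupings of the 15 libraries with a two-sided exact permutation test for 3 pairs. The log2 ratio of UGT2B17 to UGT2B15 was 0.39 ± 0.031 in R1881 + DMSO and 0.26 ± 0.016 in R1881 + enzalutamide (SD, n = 10 and 5), a difference of −0.13 (exact permutation p = 0.000333). UGT2B15 thus rose slightly more than UGT2B17, by a difference that is small beside the rise of either. The log2 ratio of UGT2B28 to UGT2B11 went from −1.11 ± 0.084 to −1.67 ± 0.088, a difference of −0.56 (exact permutation p = 0.000333), with the deeper fall in UGT2B28. For UGT2B10 to UGT2B11, a pair with near-identical upstream windows, it went from −2.59 ± 0.182 to −0.86 ± 0.105, a difference of 1.73 (exact permutation p = 0.000333). In all 3 pairs the treatments did not overlap. Each p was the smallest that 3003 regroupings can give, and the values adjusted over the 3 pairs were equal to it. For UGT2B10 to UGT2B11 the separation follows from the member values, as UGT2B11 fell without overlap while UGT2B10 stayed within the control range. The share of other gene pairs that separate in this way was not computed. Reads that match both copies of a pair could be counted for either, and their part in these ratios was not tested.

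**Figure D3:**
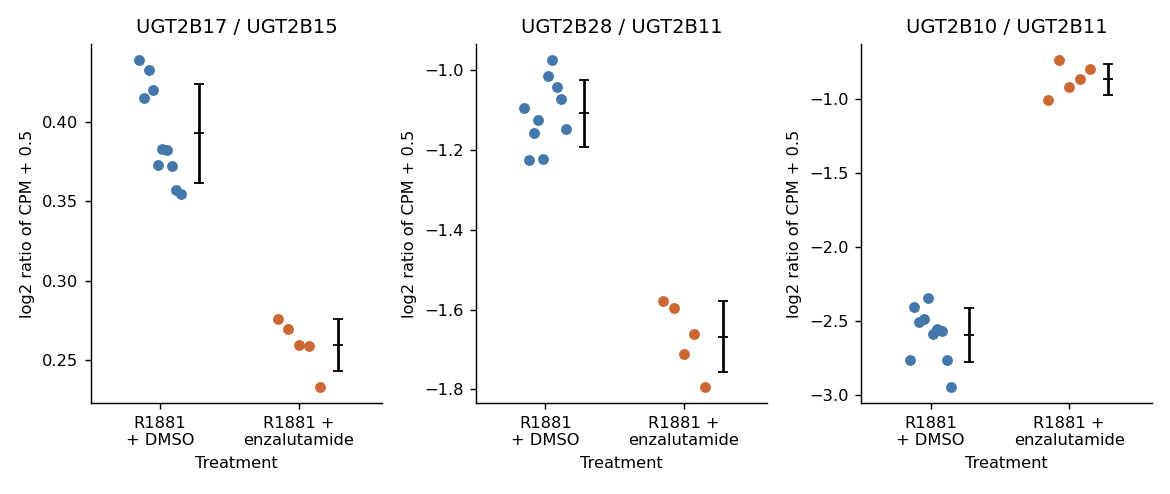
Log2 ratios of CPM + 0.5 between related UGT2B members in each library (points) with the mean and SD of each treatment beside them (bars), for UGT2B17 to UGT2B15, UGT2B28 to UGT2B11 and UGT2B10 to UGT2B11. Each vertical axis has its own scale, and in each panel the 10 libraries of R1881 + DMSO and the 5 of R1881 + enzalutamide do not overlap, with differences of −0.13, −0.56 and 1.73.

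The members with the larger changes lay in adjacent pairs. UGT2B17 and UGT2B15, which rose most, are the first members of the cluster, and UGT2B11 and UGT2B28, which fell, are adjacent members further on. UGT2B10 and UGT2B4, which did not pass the test, lie between these pairs and at the far end, and UGT2B7, with its small rise, lies apart from the other members that rose, between UGT2B10 and UGT2B11. Of the 45 annotated genes from UGT2B17 to UGT2B4, 10 had a row, namely the 7 members and the 3 pseudogenes. Of the 5 nearest protein-coding genes on each side, 2 had a row. YTHDC1, a reader of methylated adenosine in RNA, was at 87.2 ± 6.56 and 91.6 ± 3.60 CPM (log2 difference 0.07, limma adjusted p 0.211). TMPRSS11E, a serine protease gene next to UGT2B17, was lower, at 3.05 ± 0.306 and 1.72 ± 0.248 CPM (log2 fold change −0.68, limma adjusted p 1.00e-06), so that the gene bordering UGT2B17 moved the other way. With 7 members, no test of position was made.

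**Figure D4:**
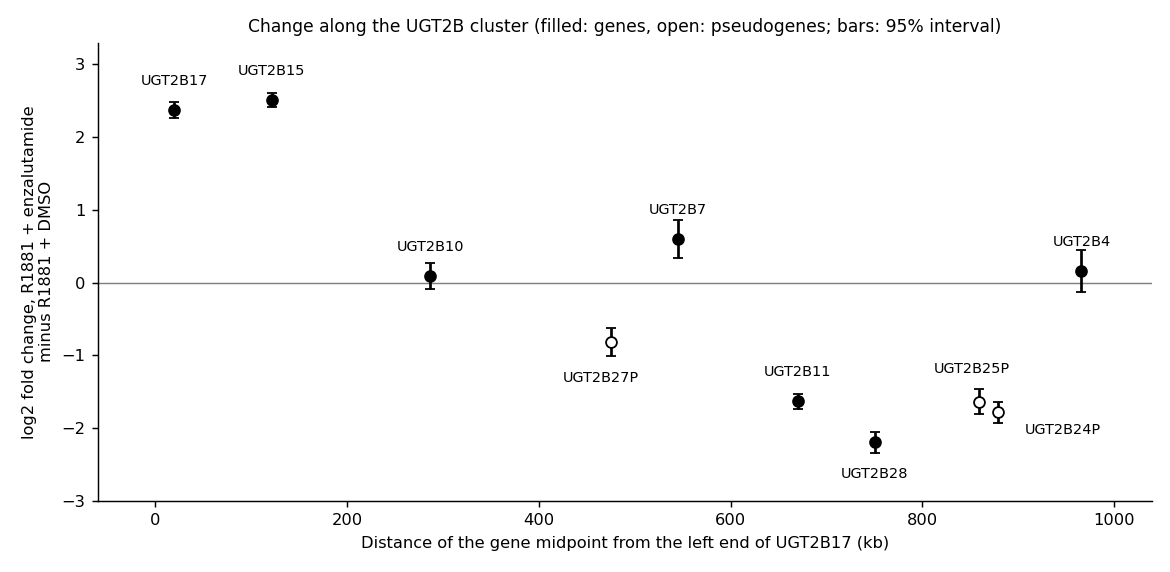
Log2 fold change (R1881 + enzalutamide minus R1881 + DMSO) with its 95% interval for the UGT2B genes (filled) and pseudogenes (open), against the distance of each gene midpoint from the left end of UGT2B17 in kb. UGT2B17 and UGT2B15 are at 2.37 and 2.51 at the left, UGT2B11, UGT2B28, UGT2B25P and UGT2B24P are between −2.19 and −1.63 further right, and the intervals of UGT2B10 and UGT2B4 include 0.

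The labels number the control libraries in series 51 to 55 and 71 to 75, without stating what the series stand for, and all enzalutamide libraries are in a series of their own, 81 to 85. UGT2B17 was at 237 ± 6.69 CPM in libraries 51 to 55 and 207 ± 11.7 CPM in libraries 71 to 75 (SD, n = 5 each), a log2 difference of −0.20 (limma adjusted p 0.0242) without overlap. UGT2B15 was at 177 ± 4.52 and 159.9 ± 8.80 CPM, also without overlap, but its log2 difference of −0.15 had a limma adjusted p of 0.0554. None of the other 5 members passed the test between the control series, and 3.17% of all genes did (2.35% lower in libraries 71 to 75). Against libraries 51 to 55 alone, the enzalutamide change was 2.28 for UGT2B17, 2.43 for UGT2B15, −1.62 for UGT2B11 and −2.12 for UGT2B28 in log2. Against libraries 71 to 75 alone, it was 2.47, 2.58, −1.65 and −2.27, so that each of these changes was far larger than the difference between the control series. Whether the enzalutamide libraries differ from the controls by their own series as well as by treatment cannot be told apart.

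The genes that supply the co-substrate of these enzymes and handle its products moved in both directions. A list of UDP-glucuronic acid supply and glucuronide handling had 10 genes tested, of which 4 were higher, 5 lower and 1 not called. The median log2 fold change was −0.08, against −0.01 over all genes tested, of which 29.8% were higher and 32.7% lower. UGDH, which oxidises UDP-glucose to UDP-glucuronic acid, fell from 104 ± 2.08 to 76.0 ± 4.34 CPM (log2 fold change −0.45, limma adjusted p 2.90e-10). UGP2, which makes UDP-glucose, rose from 41.4 ± 3.03 to 47.2 ± 1.63 CPM (0.19), and SLC35D2, a nucleotide sugar transporter, rose from 17.6 ± 0.882 to 22.8 ± 1.13 CPM (0.37). GUSB, the lysosomal glucuronidase that removes glucuronic acid, rose by 0.12 on the log2 scale, to 62.0 ± 2.89 CPM. The exporters moved in different directions. ABCC4, a pump for conjugated steroids among other substrates, fell from 1086 ± 53.1 to 209.9 ± 7.37 CPM (log2 fold change −2.37, limma adjusted p 6.30e-22), and ABCC1 fell from 286 ± 11.7 to 93.3 ± 5.19 CPM (−1.61). ABCG2 rose from 0.513 ± 0.206 to 5.27 ± 0.657 CPM (2.53, limma adjusted p 4.12e-13). The ratio of these means was 10.3, on 4 to 23 reads per control library, and the pseudocount of 0.5 holds the fitted change down. Of 15 other UGT genes listed, 1 had a row, namely UGT8, which makes galactolipids rather than glucuronides. Its log2 difference of 0.22 did not pass the test (limma adjusted p 0.165). None of the listed UGT1A, UGT2A and UGT3A genes had a row.

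Of 11 other androgen-metabolising enzymes tested, 5 were higher, 3 were lower and 3 were not called, with a median log2 fold change of 0.28. Over all genes tested, 29.8% were higher and 32.7% lower. The enzymes AKR1C1, AKR1C2 and AKR1C3, which reduce keto groups of androgens and their precursors, rose by 1.21, 1.05 and 1.18 on the log2(CPM + 0.5) scale (ratios of the means 2.70, 2.33 and 2.80). These enzymes reached no more than 4.54 ± 0.440 CPM. They are close copies as well, so their values may share reads. SRD5A1, which reduces testosterone to dihydrotestosterone, fell from 71.4 ± 3.49 to 45.9 ± 1.88 CPM (−0.63), HSD17B4 fell from 521 ± 20.4 to 373 ± 16.7 CPM (−0.48), and STS, the steroid sulfatase, fell from 36.7 ± 1.90 to 20.8 ± 1.62 CPM (−0.80).

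The list of transcription factors known to act on UGT2B genes in liver or prostate cells had 8 genes tested. Of these, 3 were higher, 2 were lower and 3 were not called, against 29.8% higher and 32.7% lower over all genes tested. GATA2 rose from 133 ± 12.6 to 204 ± 23.1 CPM (log2 fold change 0.61, limma adjusted p 6.58e-08) and POU2F1, the octamer-binding factor OCT1, from 39.1 ± 2.36 to 57.7 ± 4.03 CPM (0.56). FOXA1, the forkhead pioneer factor of luminal prostate cells, was at 378 ± 15.1 and 402 ± 10.3 CPM, a rise of 0.09 (limma adjusted p 0.0219) with overlapping groups. PPARA fell by 0.42 and NFE2L2 fell by 0.16 on the log2 scale. These are mRNA levels and carry no information on binding at the cluster.

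**Figure D5:**
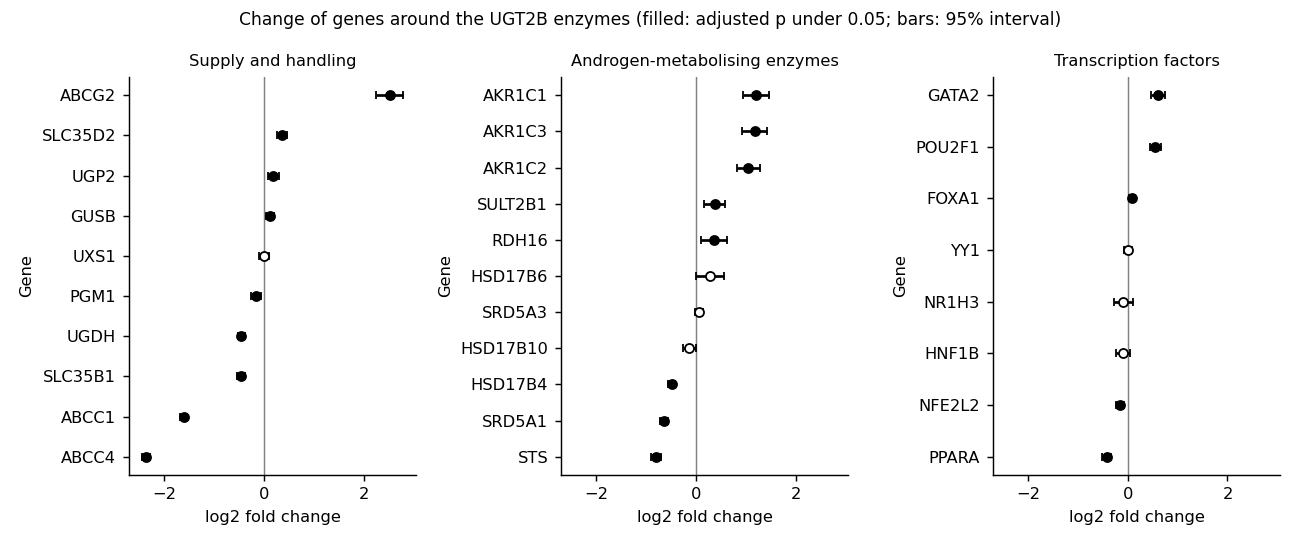
Log2 fold change (R1881 + enzalutamide minus R1881 + DMSO) with its 95% interval for genes of UDP-glucuronic acid supply and glucuronide handling, other androgen-metabolising enzymes and transcription factors known to act on UGT2B genes (filled points: limma adjusted p under 0.05). On this log2(CPM + 0.5) scale ABCC4 at −2.37 and ABCG2 at 2.53 lie furthest out, while UGDH is at −0.45 and FOXA1 at 0.09. The pseudocount of 0.5 holds down the change of genes with low CPM, such as ABCG2.

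Within a treatment, UGT2B17 and UGT2B15 varied together from library to library, with a Pearson correlation of 0.9754 over the 15 libraries once the mean of each treatment was subtracted from log2(CPM + 0.5). UGT2B11 and UGT2B28 had a correlation of 0.744, UGT2B15 and UGT2B10 of 0.549, and UGT2B17 and UGT2B28 of −0.17. The points share the control series and, within a pair, reads of common sequence, so these are descriptions. Among 12157 genes with a mean of at least 5 CPM, those most like UGT2B17 over all 15 libraries were LRRN1 (0.9992), ATG3 (0.9991) and FAM198B (0.99904), and those most like UGT2B15 were LRRN1 (0.9994), COLEC12 (0.9992) and ATG3 (0.9991). The libraries form a cluster for each treatment, and these values rest on the step between them. LRRN1 rose from 31.1 ± 3.19 to 308 ± 14.1 CPM, and ATG3, an autophagy enzyme, from 60.2 ± 3.47 to 273 ± 11.1 CPM. With the treatment means subtracted, SRR (0.971), STRN (0.970) and PDK1 (0.969) were nearest to UGT2B17, and HOMER1 (0.971), SRR (0.967) and RBBP6 (0.963) to UGT2B15, and all of these genes had log2 fold changes below 0.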

How the data were processed

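Polyadenylated RNA of LNCaP cells was sequenced as single-end reads of 50 bases from stranded libraries, in 10 R1881 + DMSO and 5 R1881 + enzalutamide libraries grouped by their labels. The study's methods text swaps the 2 numbers of replicates, and the labels were followed. Per the study's methods and the submitters' processing notes, reads were demultiplexed with bcl2fastq 2.17, mapped with STAR to GRCh38 and counted with featureCounts. The annotation, the use of strand in counting and the treatment of reads with several matches were not given in the sources used. The authors deposited a normalised signal for each gene in each library, named CPM in the methods, although its columns sum to between 985580 and 1078567. All values (100%) were whole multiples of 1 read within 0.01 reads, which gave the read totals. In 55 of 55 pairs of libraries with the same treatment, counts differed beyond sampling noise (chi-square at least 1.63 times its degrees of freedom), and no library was counted as a repeat.

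Genes whose mean CPM reached 0.5 were tested on log2(CPM + 0.5) with limma 3.58.1 (mean-variance trend, a single term for treatment, Benjamini-Hochberg adjustment over 17046 genes, threshold 0.05) in R 4.3.3, and the scripts were tested on simulated data. Log2 fold changes are on this log2(CPM + 0.5) scale unless another method is named, and the pseudocount holds them down for genes at a few CPM or less. Error values are SD unless called SE. For ratios between members, the test was an exact permutation test (two-sided, all regroupings of the libraries). Alternatives were other pseudocounts (0.1 and 1), filters and scalings, edgeR 4.0.16 and DESeq2 1.42.0 on the recovered reads, replicate blocks, single control series and leaving out each library. Uniqueness was counted over 50-base exonic windows on both strands of the primary chromosomes. The members, the gene lists and the rule for named genes (all members, the pseudogenes, and genes with a role in the lists) were chosen with earlier results of these data known. Numbers of replicates in the titles, and the last digits of the library numbers, were not taken to pair the libraries (see the closing section). Some items of the lists are not reported here.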

Additional observations from a re-analysis of the deposited data

Results flagged for a closer look

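The recovered read total of R1881 + enzalutamide replicate 5 was 25416052 reads, above the other 4 libraries of its group, which held 21188661 to 22329140 reads. Its distance to the nearest library was 0.730 of the range of the group, past Dixon's 95% critical value of 0.71 for 5 libraries. This was 1 flag in 24 groups of values examined, where chance gives 1.2. The expression of the 7 UGT2B members in this library, number 84, lay inside the range of the other enzalutamide libraries.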

How the results depend on the processing

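Every change of UGT2B17, UGT2B15, UGT2B11 and UGT2B28 kept its direction and its call in 28 alternatives, with log2 fold changes of 2.28 to 2.47, 2.43 to 2.60, −1.67 to −1.54 and −2.29 to −2.09. UGT2B7 was called in 27 alternatives, with log2 fold changes of 0.43 to 1.00 (edgeR 1.00, DESeq2 0.97) and adjusted p of 0.00011 to 0.0030, and a minimum mean of 1 CPM left it untested. UGT2B10 was called in none, with 0.01 to 0.18 and adjusted p of 0.0749 to 0.902. UGT2B4 ranged from 0.08 to 0.35 and was called in 1 alternative. The members called higher numbered 2 to 4 and those called lower 2 throughout. Leaving out each library gave 3 higher and 2 lower members each time, and 4795 to 5202 higher and 5298 to 5662 lower genes overall. The 3 differences between related members ranged from −0.16 to −0.11, −0.63 to −0.49 and 1.63 to 1.82, with adjusted exact permutation p of at most 0.00794. Per kilobase, the share of UGT2B17 in the summed level was 42.8% in R1881 + DMSO and 49.9% under enzalutamide, and that of UGT2B15 was 37.8% and 48.5%.

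Replicate numbers were not taken to pair the libraries. Libraries of unlike numbers were not compared in this way, so the correlations cannot settle whether a pairing exists. The deviations of same-numbered libraries correlated between −0.108 and 0.127 for the title number (1 of 5 over 0.1) and between −0.644 and 0.843 for the last digit of the library number (4 of 10 over 0.1). A replicate block on the title number gave 4775 higher and 5268 lower genes, with 4 higher and 2 lower members, since UGT2B4 passed the threshold there (log2 fold change 0.35, limma adjusted p 0.0454), and the cause was not tested. A replicate block on the last digit gave 5092 and 5628 genes and the calls of the members given in the report. Depth limits UGT2B7 and UGT2B4 most, at no more than 40 reads in any library, and reads shared between copies limit UGT2B11 and UGT2B28, whose exons hold the fewest unique windows among the members.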
